A study of Mus musculus and Rattus norvegicus with 51 samples.

Results

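The 9 genes followed here encode cell-surface and endosomal proteins described as receptors or co-receptors of HMGB1: Ager, Tlr2, Tlr4, Tlr9, Cd14, Ly96, Cxcr4, Havcr2 and Trem1. They were chosen by name, as a list of described partners of HMGB1, with earlier results of these data known. All 9 had a row in each of the 3 deposited count tables. These held 17327 genes for the cells, 24421 genes for the fibrosis and resolution livers and 24982 genes for the CCl4 and MO livers. At least 1 read was counted for 6 of the 9 in the cells and for all 9 in both liver tables. Enough reads to be tested were found for 5 of the 9 in the cells, 8 of the 9 in the fibrosis and resolution livers and 9 of the 9 in the CCl4 and MO livers.

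HMGB1 binds DNA in the nucleus and is released by damaged or activated cells. Outside the cell it acts as an alarm signal whose partners depend on the oxidation of its cysteines. The fully reduced form is known to pair with the chemokine CXCL12 and act through CXCR4, the disulfide form is known to bind the MD-2 subunit (Ly96) of the TLR4 receptor, and the sulfonated form is generally described as lacking both activities. RAGE (Ager) is an immunoglobulin-family receptor of HMGB1 and of glycated proteins, TLR2 and TLR9 signal through MyD88 to NF-kB, CD14 hands ligands to TLR4, TREM-1 amplifies inflammatory signals in myeloid cells, and TIM-3 (Havcr2) binds HMGB1 and dampens nucleic acid sensing.

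The study asked, per its title, what redox-sensitive HMGB1 isoforms do as liver fibrosis in mice advances and resolves. It comprises 51 RNA libraries. The labels write the HMGB1 forms as [H], [O] and [SO3], which in this field stand for the reduced, disulfide and sulfonated protein. HSC-T6 cells, an immortalised line of rat hepatic stellate cells, which produce the matrix of scarred liver, received [SO3], [O] or [H] HMGB1 or bovine serum albumin (BSA) for 6 h, with 3 libraries each. Whole livers of male wild-type mice with CCl4-induced fibrosis (4 weeks of this hepatotoxin) came from animals given [O] HMGB1, [H] HMGB1 or BSA, and livers after 1 week of regression came from animals given [SO3] HMGB1, an HMGB1 antibody or BSA, with 3 libraries each. The third table held whole livers after 4 weeks of CCl4 (4 libraries per group) or MO (3 libraries per group, an abbreviation the labels leave unexplained). Its mice were Hmgb1ΔHepΔMye, that is without Hmgb1 in hepatocytes and myeloid cells, and were given Δ[O] HMGB1 (here KO+Δ[O]) or wild-type HMGB1 (here KO+WT), or they were wild-type mice (WT). The labels name neither the Cre drivers nor what Δ[O] changes, and other liver cells keep their own Hmgb1. The route by which HMGB1 was supplied is not stated per sample. The deposited counts of the CCl4 and MO livers carry AAV8, a viral vector, in their name. Which groups received it, if any, is not stated there. Nothing in the labels tells whether libraries with different numbers came from different cultures or mice. The p-values therefore reflect only the scatter of these libraries, which may be technical.

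Expression is given as CPM, that is, read counts relative to library size with TMM factors. Libraries held 11.8 to 17.0 M gene counts in the cells, 8.36 to 16.3 M in livers of fibrosis and resolution, and 22.6 to 39.3 M in those with CCl4 or MO. A gene was called changed at a Benjamini-Hochberg adjusted p under 0.05 in edgeR's quasi-likelihood test over all genes kept in its table, and changes are log2 fold changes with their standard error (SE). Among the fibrosis livers the library numbered 2 lay lowest on the first principal component in each of the 3 groups. With [H] its mean correlation with the other 2 libraries (0.95025) was about that of those libraries (0.95125 and 0.95041). In the CCl4 and MO livers, library 5 of KO+Δ[O] with CCl4, library 4 of WT with CCl4 and library 3 of KO+WT with MO had the 3 lowest mean correlations with the rest of their groups. Whole-liver Hmgb1 was 74.5 ± 14.8 CPM in KO+Δ[O], 58.7 ± 13.4 CPM in KO+WT and 74.8 ± 22.1 CPM in WT livers under CCl4 (SD, n = 4 each). With MO it was higher in KO+Δ[O] livers (215, 172 and 131 CPM) than in KO+WT (69.7, 63.9 and 74.7 CPM) or WT livers (72.8, 74.5 and 77.3 CPM). Reads of supplied HMGB1 could be counted here, so these values do not check the deletion. The cells had high levels of stellate cell markers (8 of 9 with counts), Lrat was at 0. Of 9 macrophage and monocyte markers listed for the cells, 5 had counts, while Adgre1, C1qb, C1qc and Trem2 were at 0 in all 12 libraries.

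Promoter sequences were looked up for the members whose changes stand out below: Tlr2, with the largest change in the cells, and Tlr9 and Havcr2, called under CCl4 in each of the 3 liver settings. The sequences are RefSeq's for mouse build GRCm38.p6, 200 bases from 190 before to 10 after the annotated start, written 5′ to 3′ on the gene's strand, and capitals mark matches to the NF-kB consensus on either strand. The Tlr2 window is chr3:83841599-83841798 (minus strand), that of Tlr9 chr9:106222408-106222607 (plus strand) and that of Havcr2 chr11:46454741-46454940 (plus strand).
Tlr2: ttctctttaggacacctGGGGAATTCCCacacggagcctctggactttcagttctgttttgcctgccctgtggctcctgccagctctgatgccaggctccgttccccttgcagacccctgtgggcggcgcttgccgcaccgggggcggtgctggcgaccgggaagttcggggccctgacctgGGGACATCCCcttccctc
Tlr9: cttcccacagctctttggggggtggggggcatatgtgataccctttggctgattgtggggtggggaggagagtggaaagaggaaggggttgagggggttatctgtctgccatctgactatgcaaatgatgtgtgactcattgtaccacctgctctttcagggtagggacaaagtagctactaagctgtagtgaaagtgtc
Havcr2: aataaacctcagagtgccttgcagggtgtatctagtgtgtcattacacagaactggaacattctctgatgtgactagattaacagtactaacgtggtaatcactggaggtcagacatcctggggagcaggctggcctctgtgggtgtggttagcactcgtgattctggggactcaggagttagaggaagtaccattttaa
The Tlr2 window held 3 matches, a pair that overlap at bases 18 to 27 and 19 to 28 and another at bases 183 to 192. In the GENCODE M21 annotation Tlr2 starts at chr3:83841767 (minus strand), inside its window, so the RefSeq and GENCODE starts differ. By the GENCODE start, the match at bases 183 to 192 lies within the gene and the overlapping pair before it. The windows of Tlr9 and Havcr2 held 0. Ager, Cxcr4 and Trem1 also had a window in the table, and 1 of these 6 members' windows held a match. Over all 32851 promoters of the table, 3.17% of windows held at least 1 match and 0.0274% (9 promoters) held 3 or more. Tlr4, Cd14 and Ly96 are named only. These are letters of the mouse genome, whereas the cells are of rat, and a match is a description and not evidence of binding.

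In HSC-T6 cells, [O] HMGB1 raised Tlr2, which was nearly absent with BSA, and lowered Tlr4 and Cd14, the main receptor and the co-receptor of the lipopolysaccharide pathway. [SO3] HMGB1 raised Ager and lowered Cd14. With [H] HMGB1 0 members were called. Members called numbered 3 of 5 tested (1 higher, 2 lower) with [O], where 43.9% of all genes were called, 2 of 5 (1 higher, 1 lower) with [SO3], where 63.3% were called, and 0 of 5 with [H], where 0.799% were called. These shares are near the background, so the counts themselves say nothing particular of the members. With [H], 0 members were called by DESeq2 as well and 0 had an unadjusted p under 0.05 in edgeR, whose own count over all genes at that unadjusted level was 1713.

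The change of Tlr2, a receptor of bacterial lipoproteins, was close to off against on. Its libraries held 208, 225 and 202 reads with [O] HMGB1 (12.7, 14.3 and 13.0 CPM), against 1, 2 and 0 reads with BSA. With [SO3] HMGB1 there were 1, 3 and 8 reads, and with [H] HMGB1 1, 1 and 3 reads. All libraries given [O] lay far above the other 9, which overlapped with each other. The fitted log2 fold change of Tlr2 was 7.34 (SE 0.31, adjusted p 2.97e-16), a value that depends on the prior count given so few BSA reads (8.19 without BSA library 2). Counting alone gives 635 reads with [O] against 3 with BSA, a ratio of 179.95 per unit depth (exact 95% interval 61.3 to 875), which covers counting error only. The same ratio was 3.18 for [SO3] (0.858 to 17.6) and 1.41 for [H] (0.273 to 9.05). Tlr2 passed the filter on low counts only through the [O] libraries. The log2 fold change with [SO3] was 1.57 (adjusted p 0.09996), and without [SO3] library 1 it was 1.98 with an adjusted p of 0.0314.

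Tlr4, the lipopolysaccharide receptor, had 54.8, 53.6 and 53.9 CPM with [O] HMGB1, against 68.3, 64.4 and 68.8 CPM with BSA, without overlap. Its log2 fold change was -0.31 (SE 0.06, adjusted p 0.000116). With [SO3] HMGB1 Tlr4 had 69.5, 64.7 and 78.6 CPM and with [H] HMGB1 72.8, 69.2 and 69.9 CPM, and neither was called (adjusted p 0.229 and 0.535). Without [SO3] library 2, the [SO3] change of Tlr4 was 0.14 with an adjusted p of 0.0348. Ly96, which encodes the MD-2 subunit needed by TLR4, had 6.06, 6.74 and 6.88 CPM with [O], all below the 7.96, 7.74 and 7.35 CPM with BSA, but the difference missed the threshold (log2 -0.23, SE 0.11, adjusted p 0.0921). With [SO3] Ly96 had 7.66, 8.73 and 7.84 CPM and with [H] 6.998, 7.80 and 6.70 CPM, which overlapped with BSA.

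Cd14 had 28.0, 27.9 and 22.9 CPM with [SO3] HMGB1, 26.8, 29.1 and 26.4 CPM with [O] HMGB1 and 40.0, 43.5 and 40.7 CPM with [H] HMGB1, against 41.9, 40.5 and 40.1 CPM with BSA. The [SO3] and [O] libraries all lay below every BSA library, and the [H] libraries overlapped with BSA. Its log2 fold change was -0.57 with [O] (SE 0.07, adjusted p 2.29e-07) and -0.64 with [SO3] (SE 0.07, adjusted p 2.11e-08). For [SO3] against [O] the difference of Cd14 was -0.06, with a 95% interval of -0.21 to 0.08 and an adjusted p of 0.465.

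Ager, which encodes RAGE, had 9.58, 7.99 and 7.61 CPM with [SO3] HMGB1 (131 to 155 reads), against 5.65, 5.61 and 5.64 CPM with BSA (66 to 83 reads), without overlap. The log2 fold change was 0.57 (SE 0.14, adjusted p 0.00075). With [O] HMGB1 Ager had 5.02, 5.41 and 6.30 CPM and with [H] HMGB1 5.73, 5.94 and 8.06 CPM, and neither was called (adjusted p 0.940 and 0.432). All [H] libraries lay above the tight BSA values, though 1 of them, library 3, was far above the other 2.

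**Figure D1:**
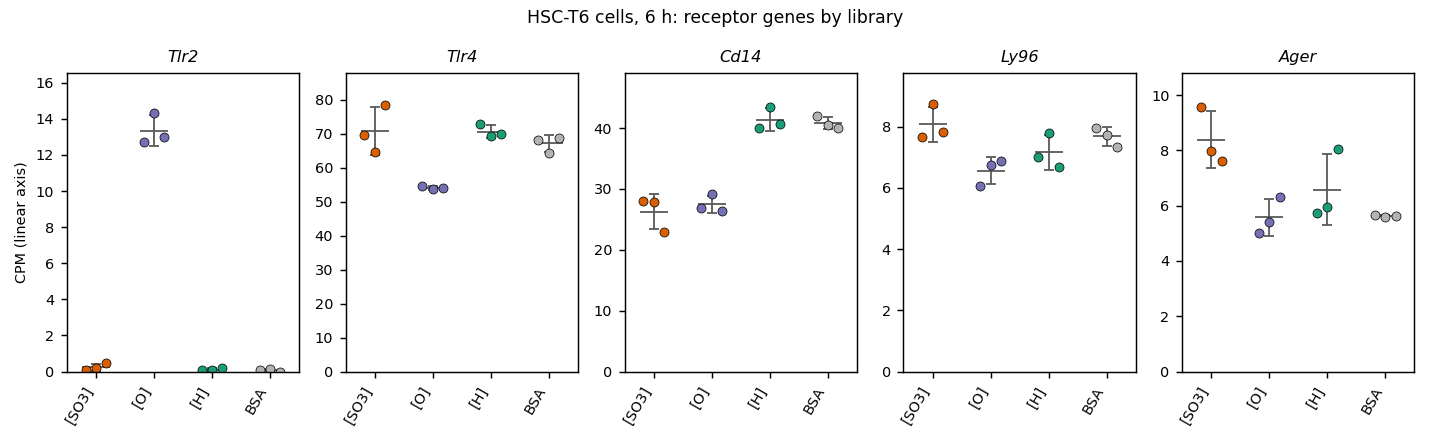
CPM (linear axis) of the 5 tested members in HSC-T6 cells by group, with a point per library, a grey bar for the mean and error bars for the SD (n = 3 each). Tlr2 is above 12 CPM only with [O] HMGB1, Tlr4 is lowest with [O], Cd14 is lower with [SO3] and [O] than with BSA, and Ager has its highest mean with [SO3].

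Set directly against each other, [SO3] and [O] HMGB1 differed for 4 of 5 members tested (3 higher, 1 lower), where 59.2% of all genes were called. With [SO3] rather than [O], Tlr2 was lower (log2 -5.78, SE 0.23, adjusted p 1.16e-16; -6.72 without [SO3] library 3), and Ager (0.59, SE 0.13, adjusted p 0.00044), Tlr4 (0.39, SE 0.06, adjusted p 2.24e-06) and Ly96 (0.30, SE 0.11, adjusted p 0.0159) were higher. The Ly96 call was lost without [O] library 1 (0.25, adjusted p 0.0800), without [SO3] library 2 (0.24, adjusted p 0.0837) and in DESeq2 (adjusted p 0.0635). The median log2 fold change of the members was 0.30, beside 0.00 over all genes. The median was -0.23 with [O] against BSA, 0.08 with [SO3] and 0.07 with [H], beside -0.01, -0.02 and 0.00 over all genes. Comparisons of the 3 forms share the BSA libraries.

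The other members had few or 0 counted reads in this line. Tlr9, the endosomal receptor of unmethylated CpG DNA, had 11 reads over all 12 libraries, with 0 to 2 in each. Cxcr4, the receptor of CXCL12, Havcr2 and Trem1 had 0 reads in all 12 libraries. For assigned reads this allows a level of up to 0.0160 CPM (3 reads over the 12 libraries together). Whether rat reads of these genes could be assigned to them was not tested. Stellate markers summed to 28639 to 30789 CPM with [SO3], 42174 to 43600 CPM with [O] and 37499 to 38281 CPM with [H], against 39257 to 41285 CPM with BSA. Of 7 tested, 0, 2 and 0 were called higher and 4, 2 and 0 lower, beside 63.3%, 43.9% and 0.799% of all genes called. Their median log2 fold changes were -0.41, -0.39 and -0.08, so the sum with [O] does not follow the median. Macrophage markers summed to 807 to 826 CPM, 927 to 944 CPM, 961 to 983 CPM and 962 to 1013 CPM in the same order of groups, nearly all of it Gpnmb. Their part in the results was not tested.

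Around the receptors, several signalling partners were called in the cells, in shares to be read against the 43.9% of all genes called with [O] and the 63.3% called with [SO3]. Of the 10140 genes tested, 2408 were called higher and 2045 lower with [O], and 3155 higher and 3265 lower with [SO3]. With [O] HMGB1, 8 of the 15 adaptors, kinases and chaperones tested were higher and 1 lower, 2 of 4 other Toll-like receptors were higher and 1 lower, 5 of 13 ligands were higher and 4 lower, and 2 of 5 other HMGB1-binding surface proteins were higher and 2 lower. The brake on Toll-like receptor signalling Irak3 had 287 CPM with [O] against 50.1 CPM with BSA (log2 2.52, adjusted p 2.36e-23). Cxcl12, the chemokine that pairs with reduced HMGB1, had 851 against 210 CPM (2.02, adjusted p 3.78e-23). The heparan sulfate carrier Sdc4 had 213 against 76.5 CPM (1.48, adjusted p 4.45e-19), and the lipopolysaccharide-binding protein gene Lbp 43.5 against 7.04 CPM (2.62, adjusted p 6.85e-19).

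With [SO3] HMGB1, 9 of the 15 adaptors and kinases were higher and 1 lower, and 1 of 13 ligands was higher and 9 lower. No other Toll-like receptor was called higher and 1 of 4 was lower, and 2 of 5 surface proteins were higher and 2 lower. Irak3 had 106 CPM with [SO3] (log2 1.08, adjusted p 2.39e-15), and Sdc4 139 CPM against 76.5 CPM with BSA (0.86, adjusted p 4.48e-14). Tollip, like Irak3 a brake on Toll-like receptor signalling, had 148 against 94.6 CPM (0.64, adjusted p 8.43e-13). The fibronectin gene Fn1 had 12200 against 17355 CPM (-0.51, adjusted p 2.04e-12). Set against [O], Cxcl12 (-2.57), Lbp (-2.53), Irak3 (-1.43) and Vcan, a matrix ligand of TLR2 (-1.07), were lower with [SO3]. With [H] HMGB1 0 members of any of these lists were called.

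In livers, a member's level can change with the number of cells that express it or with the RNA each cell holds, and whole-liver RNA cannot tell these apart. At peak fibrosis 0 of 8 members tested were called between HMGB1 forms: [H] against BSA, [O] against BSA and [O] against [H] each gave 0 members in edgeR and 0 in DESeq2, and 0% of all genes were called by edgeR in each. DESeq2 called 3, 5 and 278 of all genes. At an unadjusted p under 0.05 edgeR's counts over all genes were 1448, 727 and 1413, and its counts of members were 4, 0 and 6. The 3 comparisons share libraries in pairs, so only each one's own values are given.

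Most members nonetheless had lower values with [H] HMGB1 than with BSA or [O] HMGB1. Tlr2 had 7.62, 22.6 and 10.8 CPM with [O] and 4.72, 6.86 and 7.32 CPM with [H], against 8.18, 16.6 and 8.93 CPM with BSA, so that every [H] library lay below every BSA and every [O] library. Tlr4 had 2.99, 6.54 and 5.06 CPM with [O] and 1.29, 2.57 and 2.99 CPM with [H], against 3.12, 6.54 and 6.39 CPM with BSA. Its difference between [H] and BSA, -1.21 (SE 0.42), had an unadjusted p of 0.0106 and an adjusted p of 0.414. Tlr9 had 2.35, 5.96 and 5.12 CPM with [O], and 0.944, 1.91 and 1.72 CPM with [H], against 1.26, 6.24 and 4.50 CPM with BSA. For [O] against [H] it differed by 1.54 (SE 0.52, adjusted p 0.233) without overlap.

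The co-receptor gene Cd14 was highest in library 2 whatever the treatment. Its libraries had 24.1, 171 and 26.3 CPM with [O], 31.7, 136 and 28.7 CPM with [H], and 33.8, 385 and 29.2 CPM with BSA, the middle value each time being library 2. Trem1 had 0.854, 5.04 and 1.43 CPM with [O] and 0.343, 0.791 and 0.445 CPM with [H], against 0.598, 9.46 and 1.02 CPM with BSA, again highest in library 2 of each group. For [H] against BSA, Trem1 differed by -2.74 (SE 0.94, adjusted p 0.414) with library 2 of each fibrosis group and by -1.01 without, and Cd14 by -1.19 with and -0.08 without these libraries. Neutrophil markers summed to 213 CPM with [O], 32.8 CPM with [H] and 184 CPM with BSA in library 2, and ranged over 32.2 to 241, 23.2 to 32.8 and 51.0 to 184 CPM in the groups. Their part in these values was not tested.

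Havcr2 had 3.13, 4.86 and 3.63 CPM with [O] HMGB1 and 1.12, 1.98 and 1.15 CPM with [H] HMGB1, against 1.26, 5.94 and 1.96 CPM with BSA. The [O] libraries all lay above the [H] libraries (difference 1.45, SE 0.47, adjusted p 0.212). Cxcr4 had 9.11, 20.7 and 10.6 CPM with [O] and 3.60, 8.18 and 6.43 CPM with [H], against 4.85, 17.7 and 14.3 CPM with BSA, and here too [O] and [H] did not overlap (1.14, adjusted p 0.411). Ly96 had 3.20, 4.81 and 3.57 CPM with [O], 3.00, 6.00 and 4.14 CPM with [H] and 6.91, 7.75 and 2.98 CPM with BSA, and all groups overlapped.

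For [H] against BSA the members' median was -1.13, beside 0.00 over all genes, and 2 of the 8, Tlr2 and Tlr4, lay below BSA without overlap, as did 4.87% of all genes tested. Within pairs of the same number, 7 of the 8, all but Ly96, were lower with [H] in each of the 3 pairs, as were 15.9% of all genes. With the number as a block over all fibrosis and resolution groups, 0 members were called. For [O] against [H] the median was 1.13, beside -0.06 over all genes, and 5 of the 8 (Tlr2, Tlr9, Cxcr4, Havcr2 and Trem1) were higher without overlap, as were 9.27% of all genes. These 5 and Tlr4, 6 of the 8, were higher with [O] in each of the 3 pairs, as were 19.4% of all genes. Both comparisons rest on the same [H] libraries. For [O] against BSA the median was 0.00, and each member overlapped (adjusted p at least 0.889). Macrophage markers moved with these values: they summed to 1488 to 1682 CPM with [O] and 670 to 809 CPM with [H], against 960 to 1685 CPM with BSA, and Kupffer cell markers to 1093 to 1196, 533 to 780 and 799 to 1118 CPM. Stellate markers summed to 1226 to 1364, 353 to 593 and 700 to 1381 CPM. Their part in the members' values was not tested.

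After 1 week of regression with BSA, Cd14 and Havcr2 were lower than in fibrosis with BSA. Of the 8 members tested 2 were called, both lower, beside 9% of all genes called. Cd14 had 8.90, 12.8 and 9.91 CPM in resolution, against 33.8, 385 and 29.2 CPM in fibrosis. Its log2 fold change was -3.82 (SE 1.03, adjusted p 0.0366). Without library 2 of each fibrosis group it was -1.60 with an adjusted p of 0.00871. Leaving out fibrosis BSA library 2 alone gave -1.57 with an adjusted p of 0.266, and leaving out any 1 resolution BSA library gave adjusted p-values of 0.115 to 0.121.

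Havcr2 had 0.685, 0.543 and 0.376 CPM in resolution (3 to 10 reads), against 1.26, 5.94 and 1.96 CPM in fibrosis (19 to 59 reads), without overlap. Its change was -2.43 (SE 0.53, adjusted p 0.0194), -1.53 (adjusted p 0.0461) without fibrosis BSA library 2, and -1.55 (adjusted p 0.0281) without library 2 of each fibrosis group. Leaving out any 1 resolution BSA library gave adjusted p-values of 0.0744 to 0.0993. Tlr2 had 6.23, 7.22 and 6.40 CPM in resolution, below each fibrosis library, but missed the threshold (-0.76, adjusted p 0.245). Trem1 differed by -2.57 (adjusted p 0.0862), by -3.08 without fibrosis BSA library 1 (adjusted p 0.0302) and by -0.42 without library 2 of each fibrosis group (adjusted p 0.726). Without fibrosis BSA library 1, Tlr9 differed by -1.63 (adjusted p 0.0303), and by -1.20 (adjusted p 0.137) with it.

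Tlr4 (-0.68, adjusted p 0.269), Cxcr4 (-1.02, adjusted p 0.176) and Ly96 (0.10, adjusted p 0.882) were not called. The members' median was -1.11, beside -0.04 over all genes. Macrophage markers summed to 992 to 1035 CPM in resolution, against 960 to 1685 CPM in fibrosis, and 5 of 12 were called lower. Neutrophil markers summed to 26.4 to 46.3 CPM against 51.0 to 184 CPM. Their part in the result was not tested. Among related genes, 2 of 8 other Toll-like receptors, 2 of 7 surface proteins, 1 of 21 adaptors and 4 of 16 ligands were lower and 0 higher, with log2 changes of -2.69 for Tnc, -2.51 for S100a6 and -4.93 for Vcan (adjusted p 0.0216 each) and -1.86 for Tlr13, a receptor of bacterial ribosomal RNA (adjusted p 0.0221).

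Within resolution, no member was called with [SO3] HMGB1 or with the HMGB1 antibody. Both comparisons with BSA gave 0 of 8 members in edgeR and in DESeq2, with 0% of all genes called by edgeR, 80 and 7 genes called by DESeq2, and 812 and 279 genes at an unadjusted p under 0.05 in edgeR, of which 0 and 0 were members. Tlr2 had 8.33, 5.48 and 5.71 CPM with [SO3] and 4.07, 13.6 and 10.3 CPM with the antibody, around the 6.23 to 7.22 CPM with BSA. Cxcr4 had 6.68, 4.62 and 7.54 CPM with [SO3] and 4.41, 14.2 and 7.65 CPM with the antibody, against 7.19, 6.99 and 3.76 CPM with BSA. Havcr2 had 1.19, 1.40 and 0.794 CPM with the antibody, each above the BSA libraries (difference 1.02, 95% interval -0.13 to 2.18, adjusted p 1). It had 0.641, 0.753 and 0.714 CPM with [SO3]. Tlr4, Tlr9, Cd14, Ly96 and Trem1 overlapped with BSA in both comparisons, for example Cd14 with 19.8, 10.9 and 16.5 CPM with [SO3] and 7.80, 19.3 and 13.0 CPM with the antibody, against 8.90 to 12.8 CPM with BSA. Intervals of this width do not show that the groups were alike. Ager, with 1 to 15 reads per library (0.108 to 1.09 CPM), was not tested in these livers.

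**Figure D2:**
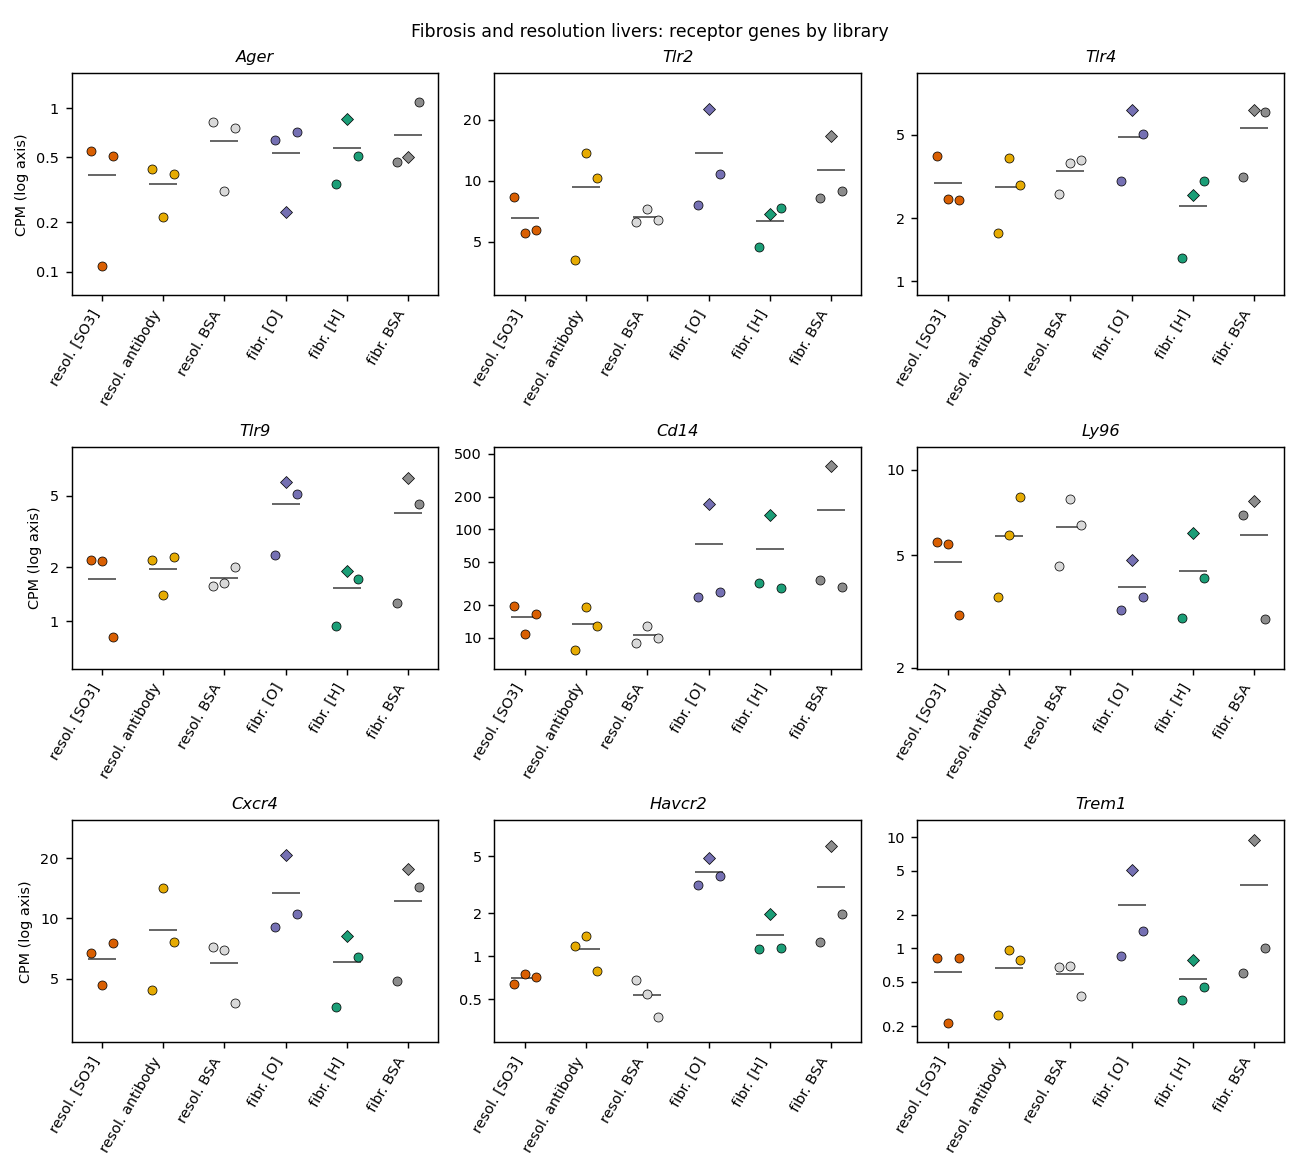
CPM (log axis) of members in fibrosis and resolution livers by group, with a point per library, diamonds for library 2 of the fibrosis groups and a grey bar for the mean (n = 3 each). The diamonds of Cd14 lie at 136 to 385 CPM, above each other library, and most members sit lower with [H] than with [O] HMGB1.

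The third table asked how CCl4 acts on livers whose HMGB1 supply differs. CCl4 raised Tlr9 and Havcr2 in each of the 3 settings, Tlr2 and Cxcr4 in KO+WT and WT livers, Tlr4 and Trem1 in KO+WT livers, and Cd14 in WT livers. Of 9 members tested, 2 were called in KO+Δ[O] livers, where 24.2% of all genes were called, 6 in KO+WT livers, where 47.3% were called, and 5 in WT livers, where 46.3% were called. All of these calls were higher with CCl4. A call in 1 setting and not in another is not a difference between settings, which has its own test further on.

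Markers of other cells moved with CCl4 as well. Stellate markers summed to 460 to 1028 CPM with CCl4 against 252 to 307 CPM with MO in KO+Δ[O] livers, 1116 to 1564 against 243 to 338 CPM in KO+WT livers and 435 to 768 against 174 to 288 CPM in WT livers, with 7, 8 and 8 of 9 called higher. Macrophage markers summed to 474 to 823 against 288 to 496 CPM, 937 to 1179 against 332.5 to 495.1 CPM, and 537 to 738 against 512 to 569 CPM, with 5, 10 and 5 of 12 called higher and 0 lower. Of 5 Kupffer cell markers 1, 4 and 1 were called higher and 0, 0 and 3 lower. Neutrophil markers summed to 20.05 to 34.2 against 17.2 to 51.2 CPM in KO+Δ[O] livers, where 0 of 7 were called, to 19.2 to 25.4 against 55.5 to 85.3 CPM in KO+WT livers, where 5 were lower, and to 19.5 to 35.6 against 8.85 to 11.9 CPM in WT livers, where 6 were higher. Their part in the members' changes was not tested.

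Tlr9 had 0.880, 0.917, 0.845 and 1.14 CPM with CCl4 against 0.283, 0.241 and 0.216 CPM with MO in KO+Δ[O] livers (log2 1.92, SE 0.36, adjusted p 0.000744). In KO+WT livers it had 1.61, 1.48, 1.88 and 1.94 CPM with CCl4 against 0.347, 0.167 and 0.769 CPM with MO (1.92, SE 0.32, adjusted p 8.79e-05). In WT livers it had 0.868, 0.776, 0.870 and 0.859 CPM with CCl4 against 0.411, 0.273 and 0.231 CPM with MO (1.44, SE 0.36, adjusted p 0.00319). CCl4 and MO libraries did not overlap in any setting. The MO libraries held few reads of Tlr9: 6 to 8 in KO+Δ[O], 4 to 30 in KO+WT and 5 to 10 in WT livers. Without KO+WT MO library 3, whose level was the highest with MO, the KO+WT change of Tlr9 was 2.71 (adjusted p 5.52e-06).

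Havcr2 had 1.88, 2.38, 1.56 and 1.54 CPM with CCl4 against 0.425, 0.241 and 0.711 CPM with MO in KO+Δ[O] livers (1.97, SE 0.42, adjusted p 0.00202). In KO+WT livers it had 2.49, 2.62, 2.97 and 4.37 CPM with CCl4 against 0.540, 0.209 and 0.999 CPM with MO (2.34, SE 0.40, adjusted p 0.000114). In WT livers it had 2.52, 1.91, 2.23 and 1.49 CPM with CCl4 against 0.453, 0.219 and 0.139 CPM with MO (2.87, SE 0.47, adjusted p 6.51e-05). The KO+WT change was 3.02 without MO library 3 (adjusted p 4.70e-05), and the WT change 3.51 without MO library 1 (adjusted p 0.000162). Again no setting overlapped, and Havcr2 had the largest change of the members in WT livers. Its MO libraries held few reads: 6 to 23 in KO+Δ[O], 5 to 39 in KO+WT and 3 to 11 in WT livers.

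Tlr2 had 14.2, 20.1, 11.9 and 12.1 CPM with CCl4 against 6.40, 4.60 and 7.87 CPM with MO in KO+WT livers, without overlap (1.21, SE 0.30, adjusted p 0.00309). In WT livers it had 6.18, 4.99, 5.36 and 2.80 CPM against 2.18, 3.22 and 1.94 CPM, where the lowest CCl4 library overlapped with MO (1.00, SE 0.33, adjusted p 0.0180). This WT call was lost without WT MO library 1 (0.92, adjusted p 0.0699), WT MO library 3 (0.85, adjusted p 0.0831) or WT CCl4 library 1 (0.86, adjusted p 0.0538). In KO+Δ[O] livers Tlr2 had 6.49, 10.9, 5.92 and 4.65 CPM with CCl4 against 7.62, 4.50 and 7.70 CPM with MO, which overlapped (0.08, 95% interval -0.54 to 0.71, adjusted p 0.871).

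Tlr4 had 11.8, 14.4, 9.43 and 9.12 CPM with CCl4 against 4.47, 3.55 and 4.61 CPM with MO in KO+WT livers, where every CCl4 library lay above every MO library (1.40, SE 0.26, adjusted p 0.000219). In KO+Δ[O] livers it had 7.04, 9.47, 8.06 and 4.06 CPM against 5.07, 4.14 and 5.66 CPM, library 5 being the low one (0.53, adjusted p 0.132). Without that library the change was 0.72 with an adjusted p of 0.0208. In WT livers it had 7.32, 6.43, 5.65 and 3.88 CPM against 3.83, 5.79 and 4.71 CPM and overlapped (0.29, adjusted p 0.367).

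Cxcr4 had 2.22, 6.70, 2.91 and 3.09 CPM with CCl4 against 1.43, 1.17 and 1.90 CPM with MO in KO+WT livers (1.31, SE 0.38, adjusted p 0.00777), the highest being library 3. In WT livers it had 4.15, 4.74, 4.15 and 3.66 CPM against 1.19, 2.57 and 2.03 CPM (1.12, SE 0.38, adjusted p 0.0197), and without WT MO library 1 the change was 0.86 with an adjusted p of 0.111. Neither pair of groups overlapped. In KO+Δ[O] livers Cxcr4 had 1.79, 4.36, 2.17 and 3.19 CPM against 1.45, 0.924 and 1.92 CPM (1.00, adjusted p 0.0606), and without CCl4 library 1 of that group the change was 1.17 with an adjusted p of 0.0394.

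Cd14 had 16.95, 40.7, 15.6 and 41.6 CPM with CCl4 against 5.18, 9.12 and 8.22 CPM with MO in WT livers, where the 4 CCl4 libraries formed a low and a high pair, both above MO (1.94, SE 0.45, adjusted p 0.00179). In KO+WT livers it had 10.5, 10.8, 10.9 and 12.8 CPM against 4.16, 5.31 and 7.996 CPM, without overlap and short of the threshold (0.94, adjusted p 0.0838), which it passed with only these 2 groups fitted (adjusted p 0.00498) and in DESeq2 (adjusted p 0.0404). In KO+Δ[O] livers it had 8.64, 9.84, 9.04 and 3.82 CPM against 4.57, 2.41 and 9.80 CPM, which overlapped (0.48, adjusted p 0.453).

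Trem1 was counted in few reads: 8, 15, 7 and 2 with CCl4 against 9, 5 and 14 with MO in KO+Δ[O] livers, 16, 28, 26 and 22 against 5, 4 and 8 in KO+WT livers, and 9, 15, 11 and 3 against 1, 2 and 4 in WT livers. Its change was 1.76 in KO+WT livers (SE 0.45, adjusted p 0.00336), 1.31 in WT livers (adjusted p 0.0671) and -0.49 in KO+Δ[O] livers (adjusted p 0.462). In WT livers Trem1 passed the threshold without MO library 3 (1.91, adjusted p 0.0431) or without CCl4 library 4 (1.59, adjusted p 0.0227). Ly96 lay between 3.21 and 5.49 CPM in all 21 libraries and was not called in any setting, though without MO library 3 of KO+WT its change there was -0.53 with an adjusted p of 0.0297. Ager had 4 to 22 reads per library (0.161 to 0.646 CPM) and was not called.

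**Figure D3:**
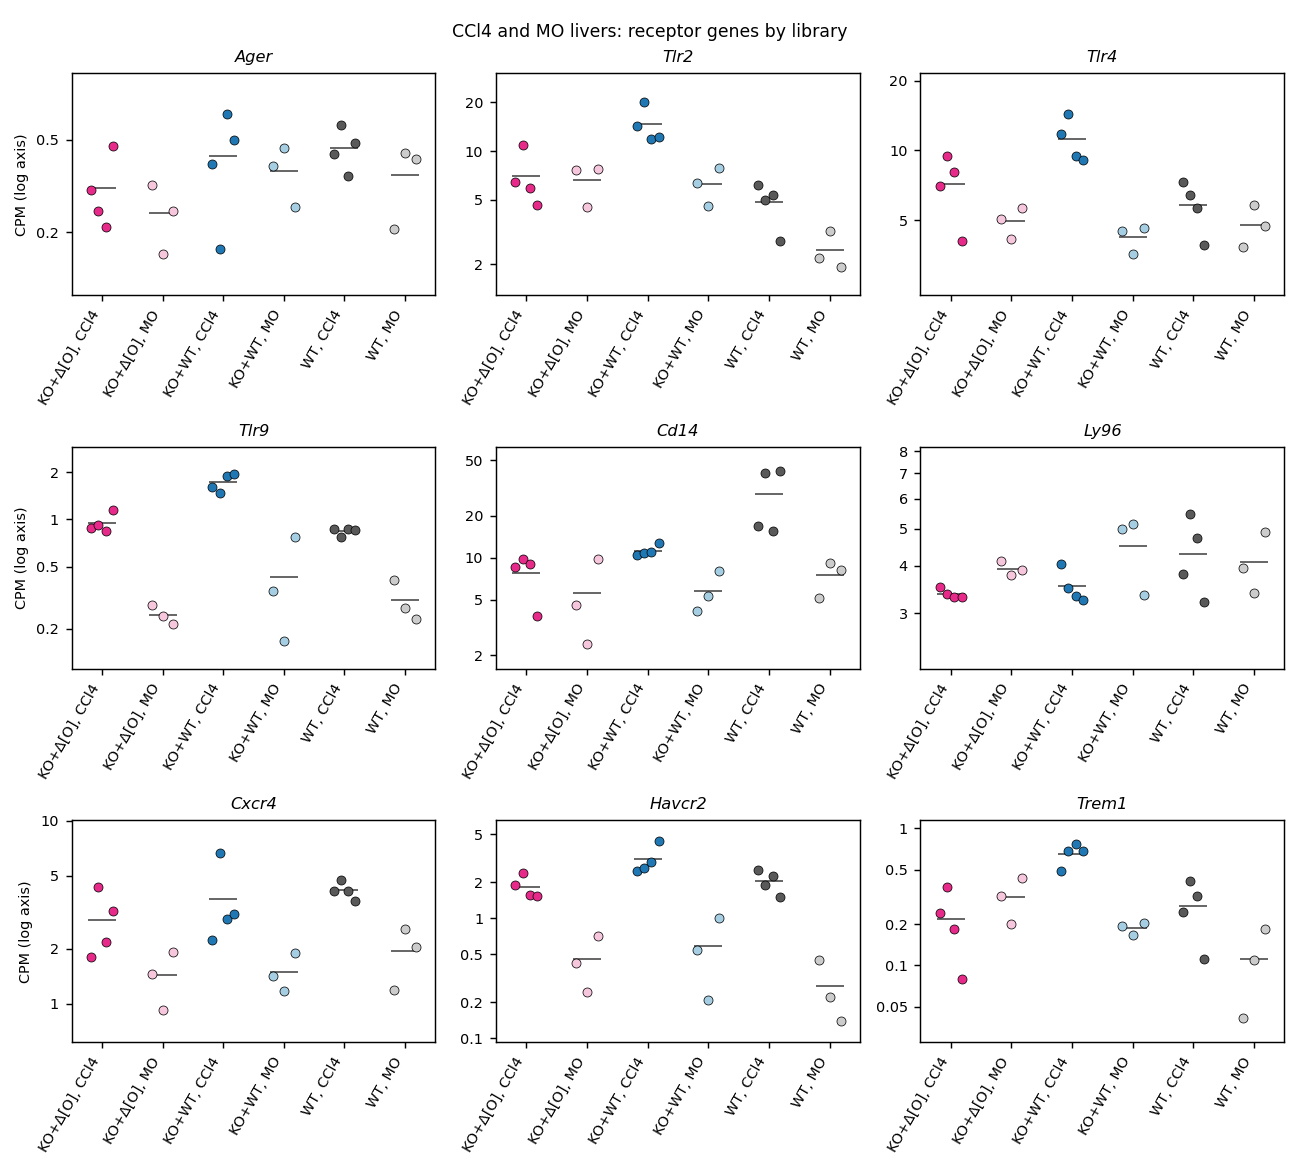
CPM (log axis) of members in CCl4 and MO livers by group, with a point per library and a grey bar for the mean (n = 4 with CCl4, n = 3 with MO). Tlr9 and Havcr2 are higher with CCl4 than with MO in each setting without overlap, and Tlr2 is highest in KO+WT livers with CCl4.

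The direct comparison of both constructs under CCl4 called 2 of 9 members lower in KO+Δ[O] than in KO+WT livers and 0 higher, beside 2.31% of all genes called (16 higher and 310 lower). Tlr2 averaged 6.99 ± 2.71 CPM in KO+Δ[O] and 14.6 ± 3.82 CPM in KO+WT livers (SD, n = 4 each), without overlap (log2 -1.06, SE 0.27, adjusted p 0.0460). Trem1 averaged 0.220 ± 0.122 CPM in KO+Δ[O] and 0.654 ± 0.118 CPM in KO+WT livers, without overlap (-1.50, SE 0.39, adjusted p 0.0437). Both calls sit just under the threshold. Of 13 alternative fits Tlr2 was called in 3 and Trem1 in 4. Leaving out any 1 library ended the call of Tlr2 except for KO+Δ[O] library 2, and that of Trem1 except for KO+Δ[O] library 2 and KO+WT library 1. Leaving out 1 library moved the adjusted p of Tlr2 to as much as 0.180 (without KO+WT library 3) and that of Trem1 to as much as 0.157 (without KO+Δ[O] library 3), with log2 values of -0.84 and -1.39.

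Tlr9 (-0.87, adjusted p 0.103), Havcr2 (-0.75, adjusted p 0.273) and Cd14 (-0.52, adjusted p 0.587) also had every KO+Δ[O] library below every KO+WT library and missed the threshold, although DESeq2 gave Tlr9 an adjusted p of 0.0431. Tlr4 differed by -0.64 (adjusted p 0.166) and, with the replicate number as a block over all groups of these livers, by -0.85 (adjusted p 0.0201). Cxcr4 (-0.38), Ly96 (-0.06) and Ager (-0.49) overlapped. In all, 5 of the 9 were lower without overlap, as were 7.07% of all genes, and 6 of the 9, these and Tlr4, were lower in each of the 3 pairs of the same number, as were 21.6% of all genes. The members' median was -0.64, beside 0.00 over all genes.

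Macrophage markers summed to 474 to 823 CPM in KO+Δ[O] against 937 to 1179 CPM in KO+WT livers under CCl4, with 4 of 12 called lower, and Kupffer cell markers to 294 to 659 CPM against 953 to 1003.5 CPM, with 3 of 5 called lower. Stellate markers summed to 460 to 1028 CPM against 1116 to 1564 CPM. Their part in the members' differences was not tested. Among related genes 2 of 9 other Toll-like receptors, 1 of 7 surface proteins, 3 of 22 adaptors and chaperones and 1 of 16 ligands were lower and 0 higher. These included Tlr8, a receptor of RNA (-1.09, adjusted p 0.0124), the Toll-like protein Cd180 (-1.02, adjusted p 0.0271) and its partner Ly86 (-0.82, adjusted p 0.0373), and the integrin subunit Itgam (-1.70, adjusted p 0.0345).

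The test of the CCl4 response itself, KO+Δ[O] minus KO+WT, called 0 of 9 members in edgeR and 0 in DESeq2, and 0% of all genes in edgeR, where 85 were called by DESeq2 and 2098 had an unadjusted p under 0.05. The response of Trem1 differed by -2.26 (95% interval -3.59 to -0.92, adjusted p 0.208), that of Tlr2 by -1.12 (-2.01 to -0.24, adjusted p 0.248) and that of Tlr4 by -0.87 (-1.61 to -0.13, adjusted p 0.276). Tlr2, Tlr4 and Trem1 each had an unadjusted p under 0.05, and none of these held after adjustment. The differences of the other 6 members had adjusted p-values of at least 0.750.

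KO+WT livers also differed from WT livers under CCl4, with 5 of 9 members called (4 higher, 1 lower) beside 28.8% of all genes. Tlr2 (1.59, SE 0.28, adjusted p 0.000325), Tlr4 (0.94, SE 0.23, adjusted p 0.00441), Tlr9 (1.03, SE 0.27, adjusted p 0.00743) and Trem1 (1.22, SE 0.38, adjusted p 0.0197) were higher in KO+WT livers. Cd14 was lower (-1.35, SE 0.39, adjusted p 0.0143). With the replicate number as a block over all groups of these livers Cd14 was no longer called (-1.15, adjusted p 0.0630), nor without WT library 2 (-1.13, adjusted p 0.0518). Trem1 was not called without WT library 4 (0.97, adjusted p 0.0640) or without KO+WT library 4 (1.14, adjusted p 0.0533). Havcr2 (0.60, adjusted p 0.175), Cxcr4 (-0.16), Ly96 (-0.29) and Ager (-0.13) were not called. These are differences in level under CCl4 and not in the response to it. With MO, Tlr2 already averaged 6.29 CPM in KO+WT and 2.45 CPM in WT livers. Its response to CCl4 differed by only 0.21 between KO+WT and WT livers (SE 0.44, adjusted p 0.799). The responses of Tlr9 (adjusted p 0.592), Trem1 (adjusted p 0.762) and Cd14 (adjusted p 0.303) were not called different either.

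Macrophage markers summed to 937 to 1179 CPM in KO+WT against 537 to 738 CPM in WT livers under CCl4, with 8 of 12 called higher and 1 lower, and Kupffer cell markers to 953 to 1003.5 CPM against 337 to 472 CPM, with 4 of 5 higher. The lower macrophage marker was Lyz2, at 6.83 against 157 CPM (-4.52, adjusted p 2.53e-07). Lyz2 is counted in the macrophage sums, of which it forms a larger part in WT livers. The part of these markers in the members' differences was not tested. Among related genes 5 of 9 other Toll-like receptors were higher and 0 lower, and 0 of 7 surface proteins higher and 2 lower. Of 22 adaptors and chaperones 5 were higher and 4 lower, among them Hsp90b1 at 966 against 2377 CPM (-1.30, adjusted p 5.83e-06). Of 16 ligands 3 were higher and 1 lower. The response of Tlr4 to CCl4 was larger in KO+WT than in WT livers by 1.11 on the log2 scale (SE 0.36, adjusted p 0.0447). It was 1 of 9 members called in that test, beside 13.5% of all genes, and it was called in 7 of 19 alternative fits, with adjusted p-values up to 0.132 (0.95 without WT MO library 2). The call held without WT MO library 1, WT CCl4 library 1, KO+WT MO library 3 or KO+WT CCl4 library 5, and was lost without any 1 of the other 10 libraries.

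**Figure D4:**
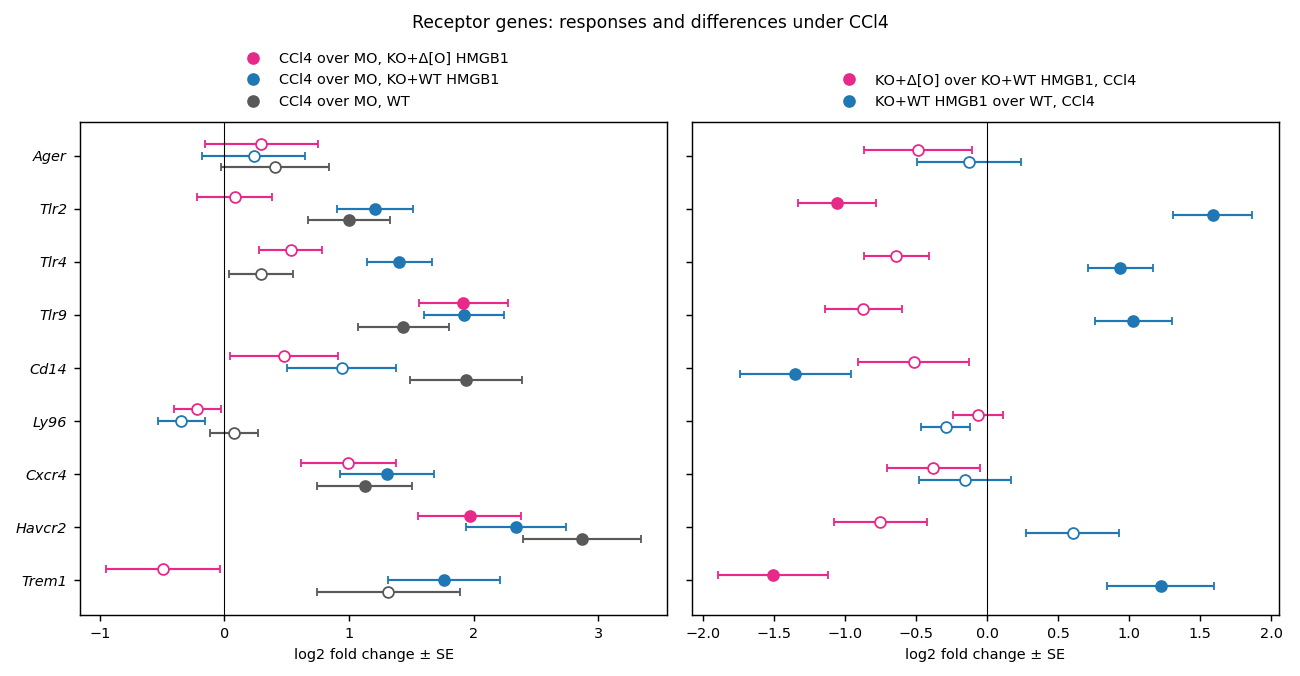
Log2 fold changes with SE for the 9 members. The left panel shows CCl4 over MO in KO+Δ[O], KO+WT and WT livers, and the right panel shows KO+Δ[O] over KO+WT and KO+WT over WT under CCl4, with filled symbols for called members. Tlr9 and Havcr2 are filled in all 3 settings on the left, and Tlr2 and Trem1 are filled below 0 for KO+Δ[O] over KO+WT.

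Related genes of the pathway were called in both directions under CCl4, as were all genes, of which 1818 were higher and 1607 lower in KO+Δ[O], 3298 and 3387 in KO+WT, and 3219 and 3323 in WT livers. In KO+Δ[O] livers 3 of 9 other Toll-like receptors were higher and 1 lower, 2 of 7 surface proteins higher and 2 lower, 1 of 22 adaptors higher and 2 lower, and 5 of 16 ligands higher and 2 lower. In KO+WT livers these counts were 4 and 2, 2 and 1, 7 and 4, and 6 and 4, and in WT livers 2 and 4, 3 and 2, 4 and 2, and 8 and 3. Hmgb2, the close relative of Hmgb1, changed by 2.31 in KO+Δ[O] and 2.34 in KO+WT livers. The flagellin receptor gene Tlr5 fell by 1.46 in KO+Δ[O] livers and fell by 2.66 in WT livers, and the shared adaptor gene Myd88 fell by 0.90 in WT livers (adjusted p 5.60e-06). Counted Hmgb1 itself was lower with CCl4 in KO+Δ[O] livers, at 74.5 CPM against 173 CPM with MO (-1.21, adjusted p 0.000336).

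Levels of different members can be compared only per length of transcript. In CPM per kilobase of merged exon, WT livers with CCl4 had Cd14 highest at 16.6 ± 8.30, then Ly96 at 4.22 ± 0.984, Cxcr4 at 2.31 ± 0.244, Tlr2 at 1.60 ± 0.479, Tlr4 at 1.05 ± 0.263 and Havcr2 at 0.750 ± 0.162 (SD, n = 4). Tlr9 at 0.242 ± 0.013, Ager at 0.216 ± 0.046 and Trem1 at 0.091 ± 0.043 were lowest. Neighbours whose libraries overlapped were Cxcr4 and Tlr2, Tlr2 and Tlr4, Tlr4 and Havcr2, and Tlr9 and Ager. With MO the WT livers had Cd14 at 4.34 and Ly96 at 3.99, which overlapped, and Havcr2 at 0.099 and Ager at 0.165 overlapped too.

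In KO+WT livers with CCl4, Tlr2 ranked second by CPM per kilobase at 4.84, behind Cd14 at 6.50 and ahead of Ly96 at 3.45, with overlap between each of these neighbours. Fibrosis livers with BSA had Cd14 at 86.3 ± 118 CPM per kilobase, a spread set by library 2, and Cxcr4 second at 6.80 without overlap. In resolution livers with BSA, Ly96 ranked above Cd14, and their libraries overlapped.

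Members were also described by the genes whose log2 CPM followed theirs most closely by Pearson's r. This is a ranking over libraries that share groups and depth, and it is given without a test. Over the 12 cell libraries Tlr2 was closest to Mras (r 0.994), Tlr4 to Inpp5f (0.974), Cd14 to Afap1l2 (0.980), Ager to Itfg2 (0.933) and Ly96 to Cdipt (0.871). Over the 18 fibrosis and resolution livers Tlr2 was closest to Fgr (0.951), Trem1 to Csf3r (0.933), Tlr4 to Lpcat2 (0.935), Tlr9 to Lpcat1 (0.910), Cxcr4 to Lrrc25 (0.920), Havcr2 to Plat (0.961), Cd14 to Ier3 (0.973) and Ly96 to Pfdn4 (0.821).

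Over the 21 CCl4 and MO livers Tlr2 was closest to Prex1 (0.945), Tlr4 to P2ry10b (0.969), Havcr2 to Sh3pxd2b (0.965), Trem1 to Epha7 (0.900), Cxcr4 to Snai2 (0.867), Cd14 to Fam83g (0.886), Ly96 to Bglap3 (0.814) and Ager to Dnajb5 (0.810). Tlr9 was closest to Fam217b (0.937), with Havcr2 the next gene (0.931). Group means were not removed, so members that both rise with CCl4 in every setting correlate for that reason alone. This rank is no separate observation. For each member the closest gene differed between the tables in which it was tested.

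On mouse build GRCm38 (GENCODE M21) the members lie apart from one another. Ager is at chr17:34597862-34600936 (plus strand) and Trem1 at chr17:48232768-48246924 (plus). Tlr2 is at chr3:83836272-83841767 (minus), Tlr4 at chr4:66827584-66930284 (plus) and Tlr9 at chr9:106222598-106226883 (plus). Cd14 is at chr18:36725067-36726798 (minus), Ly96 at chr1:16688051-16709611 (plus), Cxcr4 at chr1:128588199-128592293 (minus) and Havcr2 at chr11:46454935-46481255 (plus). Trem1 overlaps a processed pseudogene on the other strand with 0 shared exon bases, and none of the other 8 overlaps an annotated gene.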

How the data were processed

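The authors deposited raw read counts per gene in 3 tables of 12, 18 and 21 libraries, a unit read from the values, which are whole numbers with differing totals. RNA came from whole liver or HSC-T6 cells, and libraries from a stranded mRNA kit, per the labels' protocols. The submitters' processing notes name mm10 for every sample, the rat cells included, although 368 row names of the cell table start with RT1- or RGD, as rat names do, and 0 with H2-. The sources used here do not give the aligner, counter, annotation or strand setting. Reads without a gene (32.0% to 35.2% of gene counts in the cells, 5.50% to 8.51% in the CCl4 and MO livers) and ambiguous reads were left out. All columns matched a sample, and no 2 libraries of a group agreed within sampling noise.

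Tables were fitted separately in edgeR 4.0.16 under R 4.3.3 (TMM factors, filterByExpr with a minimum count of 10 and total of 15, which kept 10140, 13487 and 14129 genes). 1 robust quasi-likelihood model took all groups of a table, with Benjamini-Hochberg adjustment over all kept genes. The code was first run on simulated counts. These had independent libraries, without outlying ones or a shared effect of number, so the run cannot speak to those features of the livers. CPM were computed from the counts. Alternatives were RLE size factors (in edgeR), no filter, a replicate block, only the compared groups, DESeq2 1.42.0, and leaving out libraries. The block gave each number a shared effect in all groups of a table, including groups whose same-numbered libraries did not deviate together. It is therefore not a paired test of only the groups compared. Same-numbered libraries deviated together, with correlations of 0.187 to 0.595 between each fibrosis treatment and BSA, 0.274 to 0.708 between [O] and [H], 0.108 to 0.261 between KO+Δ[O] and KO+WT, and 0.116 to 0.313 between KO+WT and WT under CCl4, and the numbers were taken as pairs there, from the data and not the labels. Counting intervals are exact (Clopper-Pearson, 95%), with a floor of 3 counts, and cover counting error only.

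All members with enough reads were tested in every comparison, and those not given with values there are summarised by count or range. Of other pathway genes, at most 4 per comparison are named, those with the smallest adjusted p among the called, and the closest gene by correlation used log2 CPM with a prior count of 2. The members and lists were chosen with earlier results of these data known.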

Additional observations from a re-analysis of the deposited data

Results flagged for a closer look

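In WT livers with CCl4, Tlr9 had 0.776 CPM in library 2, against 0.859 to 0.870 CPM in the other 3 libraries, a gap that is large for so tight a group (Dixon's ratio 0.882). Of 27 such groups of 4 libraries tested for the members, 1 showed such a gap, and chance gives about 1 in 20. The response of Tlr4 to CCl4 was larger in KO+WT than in WT livers by 1.11 on the log2 scale (SE 0.36, edgeR adjusted p 0.0447), by the test of the difference itself. These livers differ both in genotype and in supplied HMGB1, which cannot be told apart here. Tlr4 was 1 of 9 members called, beside 13.5% of all genes, and was called in 7 of 19 alternative fits.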

How the results depend on the processing

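Of 131 member results, 1659 alternative fits were made: 1591 kept the side of the threshold, 52 lost a call, 16 gained one and 0 called values changed sign. The count of called members moved by over 1.5 times, or to or from 0, in these 4 comparisons. For resolution against fibrosis with BSA it was 2 and became 1 without the filter, 0 with only the compared groups, and 0 to 4 with 1 library left out. For CCl4 in WT livers it was 5, and 3 to 6 with 1 library left out (3 without MO library 1). For KO+Δ[O] against KO+WT under CCl4 it was 2 and became 0 with RLE size factors, 0 without the filter, 0 with only the compared groups, 3 with DESeq2 and 0 to 2 with 1 library left out. For the response of KO+WT minus WT it was 1 and became 0 with RLE size factors, 0 without the filter and 0 to 1 with 1 library left out. The cause was not tested. With the replicate number as a block the count was 3 for KO+Δ[O] against KO+WT under CCl4 and 4 in place of 5 for KO+WT against WT, and no other call of paired groups changed. In KO+Δ[O] livers, whose CCl4 and MO numbers do not pair, the block gave 3 in place of 2 by adding Tlr4. Smaller moves were 4 to 3 for [SO3] against [O] in the cells (DESeq2, and 3 to 4 with 1 library left out), 2 to 3 for [SO3] against BSA and for CCl4 in KO+Δ[O] livers (1 library left out, and DESeq2 in the livers), and 6 to 7 for CCl4 in KO+WT livers (only the compared groups, DESeq2, or 1 library left out). Fits without library 2 of all 3 fibrosis groups were chosen after seeing the data.

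Counts over all genes moved by over 1.5 times in these cases. [H] against BSA in the cells gave 81, and 168 without the filter, 39 with the block, 454 with only the compared groups, 140 with DESeq2 and 13 to 195 with 1 library left out. Resolution against fibrosis gave 1214, and 776 without the filter, 91 with only the compared groups, 2334 with DESeq2 and 0 to 2377 with 1 library left out. KO+Δ[O] against KO+WT under CCl4 gave 326, and 108 with only the compared groups, 579 with DESeq2 and 61 to 492 with 1 library left out. CCl4 in KO+Δ[O] livers gave 3425 and 2127 to 4039 with 1 library left out. The response of KO+WT minus WT gave 1906 and 1213 to 2480, and that of KO+Δ[O] minus KO+WT gave 0, and 3 with the block and 0 to 1119 with 1 library left out. Against 0, [O] against [H] in fibrosis gave 1 with the block and 0 to 16 with 1 library left out, [O] against BSA 0 to 1, and [SO3] against BSA in resolution 2 with the block, 49 with only the compared groups and 0 to 2. Depth limits Trem1 and Ager in livers and Tlr2 outside [O] in cells, where a library held few reads. It also limits Tlr9 and Havcr2 in MO livers and Havcr2 in resolution livers. DESeq2 gave no adjusted p in 11 fits.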
